A study of Mus musculus with 36 samples.

Results

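The periaqueductal grey (PAG) is the midbrain tissue around the cerebral aqueduct. Its glutamatergic and GABAergic neurons drive pathways that descend through the medulla to the spinal cord and raise or lower pain, and opioids and endocannabinoids act on them. The serotonin neurons of the dorsal raphe lie along its ventral edge. Spared nerve injury (SNI) cuts some branches of the sciatic nerve, leaves another intact, and gives rodents a lasting sensitivity of the paw.

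The PAG comparison used 12 of the 36 libraries of the study, 6 from sham-operated mice and 6 from mice with SNI, chosen by their labelled region and surgery. All were adult male C57BL/6 mice, and the tissue was taken 2.5 months after surgery to the sciatic nerve. The other 24 libraries came from nucleus accumbens (NAc) and medial prefrontal cortex (PFC) of the same 2 surgical groups. The question set by the design is which transcripts differ in brain regions of pain and mood long after a peripheral nerve injury. Poly(A) RNA was read from pooled RNA, and neither the number of animals in a pool nor their assignment to libraries is given in the sources used here, so p-values measure the spread between these libraries. Libraries are named below by their labelled numbers, sham 25 to 30 and SNI 31 to 36.

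The deposited values are RPKM (assigned reads scaled to gene length and library depth), and between 27.6 M and 44.1 M assigned reads lay behind each PAG library. Depth did not differ between the groups beyond the spread (37.9 ± 3.67 M in sham, 34.8 ± 5.2 M in SNI, SD, n = 6 each, two-sided exact permutation p = 0.275). The label of the tissue was checked against 3 defining markers. Slc17a6, the vesicular glutamate transporter of midbrain neurons, was read at 117 ± 5.42 RPKM in sham and 112 ± 8.68 in SNI. Tph2, the enzyme of serotonin synthesis, stood at 153 ± 24.1 and 113 ± 46.3 RPKM, and no library lacked it. Gata3, a transcription factor of midbrain GABAergic and raphe serotonin neurons, was read in all 12 libraries at 3.85 to 6.61 RPKM. These markers do not show neighbouring tissue. The summed level of 8 choroid plexus genes was 786 RPKM in sham 27 and 329 in SNI 31. It was 12.2 to 27.1 RPKM in the other PAG libraries, and its part in the results below was not tested.

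A property of the libraries moved with the surgery and touches every result below. For each library, the slope of its log2 levels, relative to the regional mean of each gene, was taken on the GC content of the genes. The 6 sham slopes lay between -0.22 and -0.02 log2 units per 10 GC points and the 6 SNI slopes between 0.04 and 0.22, with no overlap. The means were -0.11 ± 0.06 and 0.11 ± 0.06 (SD, n = 6 each), a difference of 0.23 (two-sided exact permutation p = 0.00216 over 924 assignments, 0.00649 adjusted over 3 regions, the smallest p that the permutations can give). The same difference was 0.09 in NAc (exact permutation p = 0.234) and 0.01 in PFC (exact p = 0.909), where the groups overlapped. Sham 28 and SNI 36 had the steepest slopes in PAG, and the count of all genes and the list counts that moved by over 1.5 times are given below with and without them. The slope on log2 gene length did not differ detectably (difference -0.0027 log2 units per unit of log2 length, exact p = 0.511), although it did when genes under 2 RPKM were dropped (-0.015, exact p = 0.0238). What sets the slopes was not tested, and in PAG the surgery and the slope cannot be told apart, since no sham library had the slope of any SNI library.

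**Figure D1:**
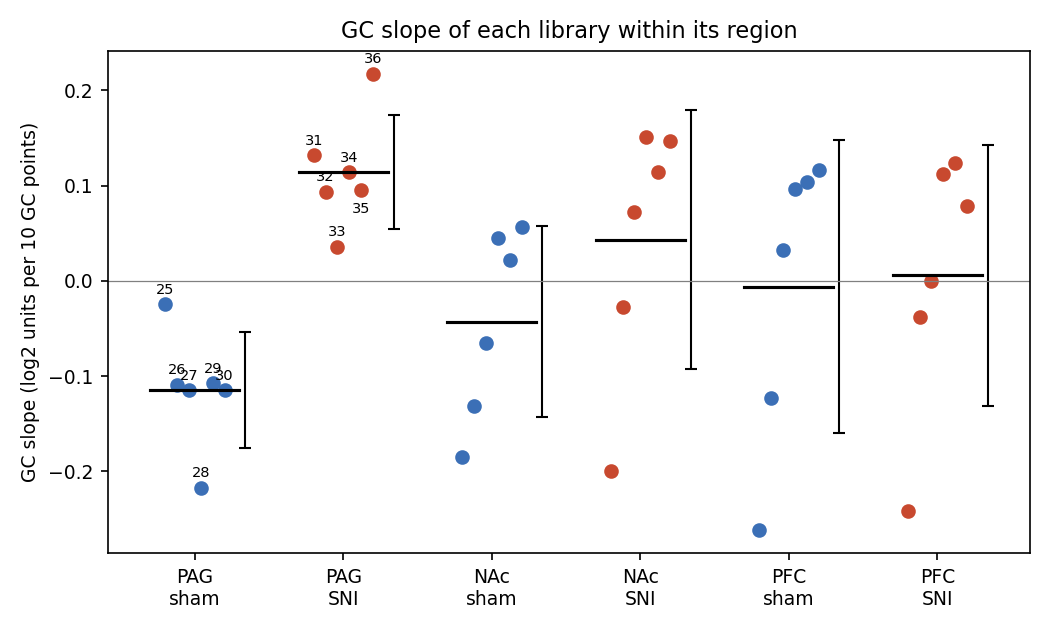
Each point is 1 library, the horizontal line is the group mean and the bar is 1 SD (n = 6); the vertical axis is the slope of log2 level on GC content, in log2 units per 10 GC points, taken within each region. The PAG sham libraries (25 to 30) all lie below 0 and the PAG SNI libraries (31 to 36) all lie above it, whereas the groups overlap in NAc and PFC.

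How transcripts of higher and lower GC content look is shown by pairs of genes from the same cells or pathway that moved apart in PAG. The pairs were chosen after the values were seen, and they are examples only. The stretches below are 90 bases of coding sequence (GENCODE M21 on GRCm38), with G and C in capitals. Each comes from the longest coding transcript of the gene that has an ATG start. The window was chosen by a fixed rule as the one closest in GC content to the whole coding part. C1qa and P2ry12 are both microglial, Agt and Slc1a2 are both astrocytic, and Slc12a5 and Gabrq both serve GABA signalling. In each pair the first gene rose in SNI and the second did not.
C1qa: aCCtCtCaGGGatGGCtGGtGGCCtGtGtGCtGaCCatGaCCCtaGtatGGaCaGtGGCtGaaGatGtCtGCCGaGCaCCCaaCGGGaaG
P2ry12: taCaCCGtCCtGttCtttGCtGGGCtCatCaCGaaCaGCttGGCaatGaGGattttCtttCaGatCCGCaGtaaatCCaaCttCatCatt
Agt: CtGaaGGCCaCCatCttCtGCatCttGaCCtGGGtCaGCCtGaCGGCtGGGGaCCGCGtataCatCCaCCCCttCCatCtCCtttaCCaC
Slc1a2: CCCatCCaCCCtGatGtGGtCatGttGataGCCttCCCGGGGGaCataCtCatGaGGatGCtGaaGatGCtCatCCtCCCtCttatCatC
Slc12a5: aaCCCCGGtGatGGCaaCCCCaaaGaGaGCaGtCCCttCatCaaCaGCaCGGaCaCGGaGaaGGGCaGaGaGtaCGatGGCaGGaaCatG
Gabrq: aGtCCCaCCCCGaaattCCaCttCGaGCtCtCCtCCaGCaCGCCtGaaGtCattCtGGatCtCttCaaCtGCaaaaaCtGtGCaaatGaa
The C1qa stretch (coding bases 7 to 96, gene at chr4:136895917-136898803, minus strand) holds 53 G or C bases, and the P2ry12 stretch (coding bases 112 to 201, chr3:59216272-59262871, minus strand) holds 40. The Agt stretch (bases 37 to 126, chr8:124556534-124569706, minus strand) holds 52 and the Slc1a2 stretch (bases 205 to 294, chr2:102658659-102790784, plus strand) 47. The Slc12a5 stretch (bases 46 to 135, chr2:164960802-164999731, plus strand) holds 51 and the Gabrq stretch (bases 79 to 168, chrX:72825178-72842602, plus strand) 44. Over the longest transcript of any kind, which need not be the one that gave the stretch, the contrast is wider. Its GC content was 59.5% in C1qa and 38.6% in P2ry12, 56.3% in Agt and 45.3% in Slc1a2, and 58.3% in Slc12a5 and 45.03% in Gabrq.

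Of 15592 genes tested with limma on log2(RPKM + 0.5), 5495 (35.2%) differed between SNI and sham at a Benjamini-Hochberg adjusted p under 0.05, the threshold used for every "rose" and "fell" below. Of these, 3360 (21.5%) were higher in SNI and 2135 (13.7%) lower, and the median log2 fold change of all genes tested was -0.02. In 2073 genes (13.3%) every SNI library lay above every sham library, and in 566 (3.63%) every one lay below. Without sham 28 and SNI 36 the counts were 2714 higher and 966 lower. Quantile scaling reversed the balance, with 2924 higher and 4019 lower.

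Direction followed GC content. Among 967 genes under 40% GC, 0.310% were higher and 28.4% lower, and among 2995 genes of 40 to 45% GC, 0.401% were higher and 32.1% lower. Among 654 genes of at least 60% GC, 78.3% were higher and none was lower. The median log2 fold change was -0.11 in the lowest class and 0.43 in the highest, and Spearman's rho between fold change and GC across 15426 genes was 0.70, a description, since genes of 1 library share its slope. The GC content of the coding part (rho = 0.72) and of the 3′ untranslated part (0.64) followed the fold change more closely than that of the 5′ untranslated part (0.12) and of the promoter (0.07). This was in 9415 genes with all parts annotated. Length entered too, as a description. Of the 96 genes with at least 60% GC and under 1000 bases, 46.9% were higher, against 94.4% of the 161 with at least 4000 bases.

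**Figure D2:**
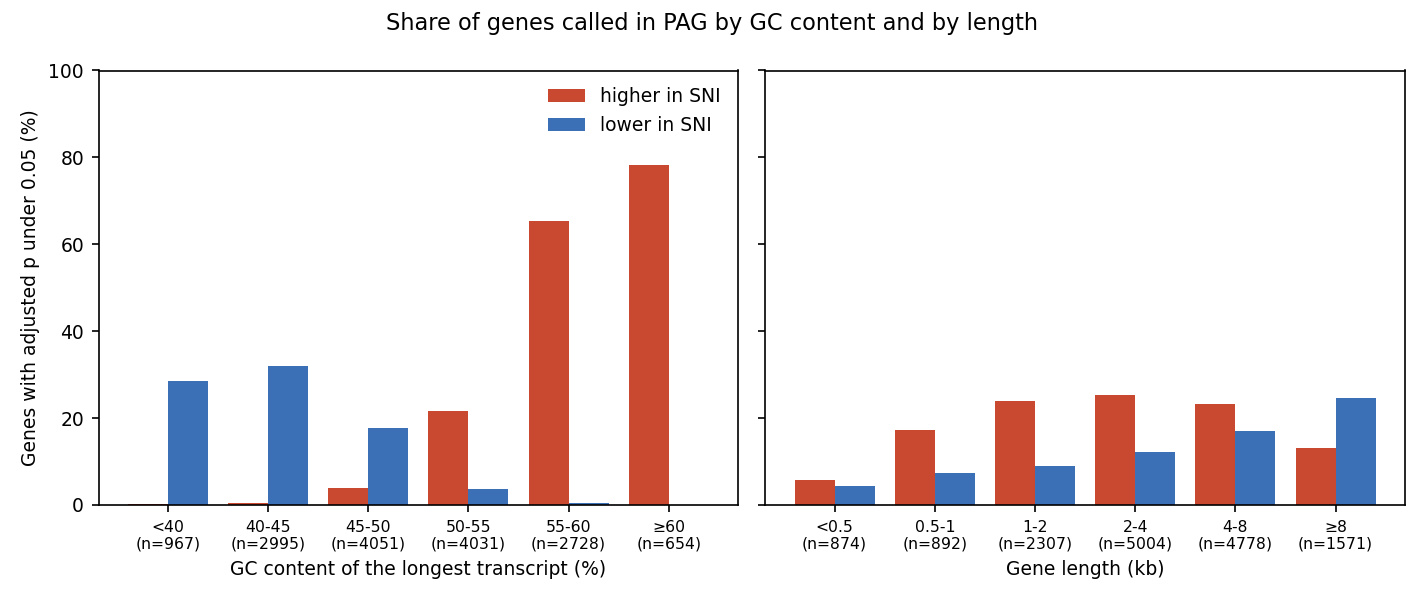
Bars give the share of PAG genes (vertical axis, percent) called higher (red) or lower (blue) in SNI at an adjusted p under 0.05, by GC content of the longest transcript (left) and by gene length (right); n under each pair is the number of genes. The share of higher calls climbs from 0.310% to 78.3% with GC content, whereas across lengths both kinds of call occur in every class.

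Further fits were set beside each change. With the GC trend alone removed, 1201 genes were called higher (7.79%) and 818 lower (5.3%), 1353 of which were also called in the same direction as deposited. The fit used below removed, from each library, its smooth trend on GC content and length, after which 1267 of 15426 genes (8.21%) were higher and 1145 (7.42%) lower and the correlation with GC was -0.04. A further fit, called the library-axis correction here, took from the NAc and PFC libraries how each gene moves with the slope of its library and subtracted that from PAG. It called 16 genes higher (0.103%) and 6 lower (0.0385%), of which 15 were also called in the same direction as deposited. With the slope as a covariate in PAG itself, limma called 0 genes, and 1374 had an unadjusted p under 0.05. The correction by forebrain libraries assumes that a gene moves with the slope alike in PAG. For a gene near 0 RPKM in NAc and PFC, the added 0.5 RPKM holds that movement near 0. The correction then leaves its PAG value nearly as deposited and is no check on it. The covariate shares most of its variation with the surgery.

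Of 2735 protein-coding genes that rose and averaged 2 RPKM or more, predicted genes and clone names left out, 8 rose in 3 fits (as deposited, GC and length trend removed, library-axis correction). They were Odf3b, Mab21l2, Foxj1, Agt, Npas1, Sfrp5, Rnf208 and Tmem25. In each every SNI library exceeded every sham library, which is no separate support, since the genes were selected on these same libraries. Among all genes tested, 2073 (13.3%) did so. Of 1879 such genes that fell, 0 fell in all 3 fits.

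Mab21l2, a factor needed for development of the midbrain and eye, ranged from 4.15 to 5.73 RPKM in sham (median 4.60) and from 6.31 to 8.18 in SNI (median 7.41). Every SNI library exceeded every sham library, at log2 fold changes of 0.56 ± 0.08 (SE, limma adjusted p = 0.000212), 0.61 ± 0.08 with the GC and length trend removed (adjusted p = 0.000575) and 0.50 ± 0.08 with the library-axis correction (adjusted p = 0.0356). Mab21l2 is near 0 RPKM in NAc and PFC, so that correction could change it little. Its transcript holds 47.5% GC, and of genes with 45 to 50% GC, 3.88% rose.

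Foxj1, the master regulator of motile cilia in ependymal cells, ranged from 4.79 to 7.47 RPKM in sham (median 6.27) and from 9.97 to 15.1 in SNI (median 10.9). The rise was 0.84 ± 0.10 as deposited and 0.41 ± 0.06 with the trend removed (limma adjusted p = 8.45e-05 and 0.000634). Odf3b, annotated as an outer dense fibre gene, went from 2.56 to 3.87 RPKM in sham to 5 to 7.76 in SNI, a rise of 0.85 ± 0.11 (limma adjusted p = 0.000116), against 0.53 ± 0.09 with the trend removed. With the library-axis correction Odf3b had 0.61 ± 0.10 (limma adjusted p = 0.0314). Odf3b averaged 0.28 RPKM in NAc and 0.51 in PFC, near the added 0.5 RPKM, so that correction is a weakened check on it. Both Foxj1 and Odf3b are GC-rich (61.4% and 59.9%).

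Agt, angiotensinogen, which the brain makes mainly in astrocytes, ranged from 52.5 to 71.6 RPKM in sham (median 62.7) and from 90.7 to 107 in SNI (median 95.9). It rose by 0.62 ± 0.07 as deposited, 0.41 ± 0.05 with the trend removed and 0.29 ± 0.04 with the library-axis correction (limma adjusted p = 5.5e-05, 0.000389 and 0.0314). Npas1, a transcriptional repressor of inhibitory neurons, rose from a median of 3.73 to 7.24 RPKM (0.89 ± 0.11, limma adjusted p = 7.97e-05), with 0.47 and 0.27 in the corrected fits. Sfrp5, a secreted inhibitor of Wnt signalling, rose from a median of 6.47 to 9.26 (0.58 ± 0.09, limma adjusted p = 0.00029). Its value was 0.21 ± 0.06 with the GC and length trend removed, and 0.18, not past the threshold, with the GC trend alone removed (adjusted p = 0.0779). Sfrp5 is low in NAc, which weakens the library-axis correction as a check on it. Rnf208, a ring finger ubiquitin ligase, moved from a median of 18.9 to 39 RPKM (1.02 ± 0.11), against 0.65 ± 0.08 with the trend removed and 0.20 ± 0.04 under the library-axis correction. Tmem25, a membrane protein of the immunoglobulin family, rose from 19.7 to 24.9 (0.35 ± 0.05), against 0.16 ± 0.04 with the trend removed. In all 5 genes the lowest SNI library exceeded the highest sham library.

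**Figure D3:**
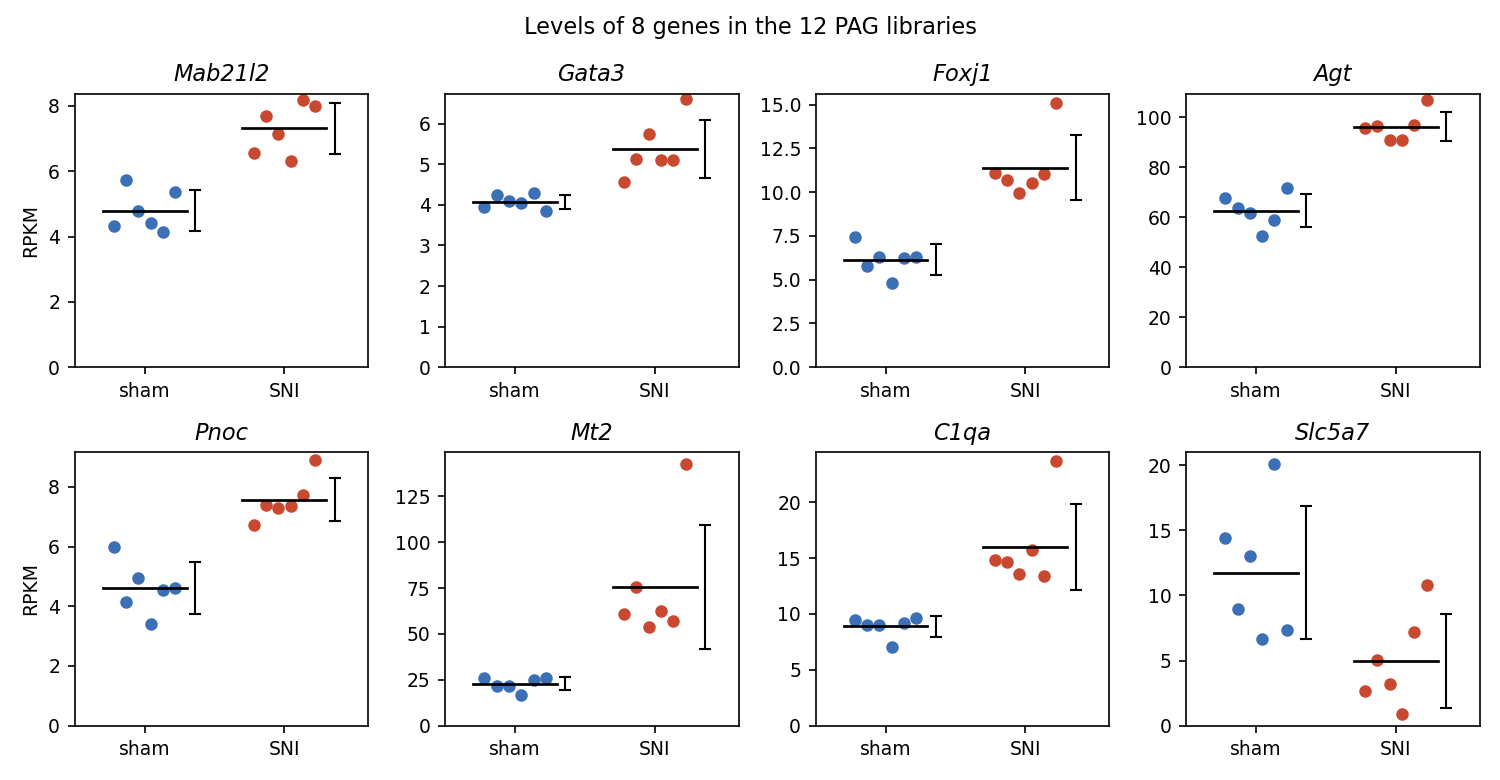
RPKM (vertical axes, from 0) of 8 genes in the 6 sham (blue) and 6 SNI (red) PAG libraries, with the group mean (line) and 1 SD (bar). In all but Slc5a7 the groups do not overlap, and SNI 36 is the highest library for Foxj1, Mt2 and C1qa.

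The 6 largest rises by fold, predicted genes left out, were not past the threshold in the library-axis correction. Rpl36, a ribosomal protein gene of 404 bases, ranged from 4.18 to 13.1 RPKM in sham and from 28.4 to 66.2 in SNI (2.13 ± 0.23, limma adjusted p = 5.91e-05), and the corrected value was 0.09 ± 0.11 (adjusted p = 0.795). Mt2, a metallothionein that binds zinc, ranged from 16.6 to 25.9 RPKM in sham (median 23.4) and from 53.8 to 143 in SNI (median 61.9). Its log2 fold change was 1.63 ± 0.20 as deposited, 1.35 without sham 28 and SNI 36, 1.47 ± 0.19 with the trend removed and 0.27 ± 0.12 with the library-axis correction. SNI 36 alone carried the 143 RPKM. Its neighbour Mt1 behaved alike (1.45 ± 0.19, corrected 0.09 ± 0.09). Ccdc85b, Fbll1 and Pcsk1n, the last encoding the prohormone convertase inhibitor proSAAS, were the others, with rises of 1.88, 1.45 and 1.47, whereas the corrected values of Ccdc85b (-0.23) and Pcsk1n (-0.62) were below 0.

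Of the 1879 genes that fell, 351 also fell with the GC and length trend removed. Nhej1, a factor of DNA end joining, ranged from 2.22 to 2.99 RPKM in sham and from 1.52 to 2.20 in SNI, a fall of 0.33 ± 0.09 on the log2 scale (limma adjusted p = 0.0104). Slc9a7, a sodium-proton exchanger of the trans-Golgi network, went from a median of 19.1 to 16.3 RPKM with no overlap (-0.29 ± 0.07, adjusted p = 0.0046). The others ranked highest by the smaller of the 2 values were Frmpd3, Prune2, Pet100, Arhgap36, Crhbp, Rgag1, Lancl3, Pcbd1, Faxc and S100a10, with falls between 0.26 and 0.38 log2 units as deposited. Leaving out single libraries ended the calls of Frmpd3 (adjusted p up to 0.0754) and S100a10 (up to 0.0535). Among the largest falls as deposited, beside Slc5a7 and Prune2, were Spp1, osteopontin (-0.59, from a median of 34.7 to 22.1 RPKM), Cntnap3 (-0.39), Slc40a1, the iron exporter ferroportin (-0.39), and Tipin (-0.38), and the call of Spp1 was lost on leaving out any of 8 single libraries.

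Some genes went against the GC trend. Only 15 genes under 45% GC rose, and among them, named after their values were seen, Snrpn and Ndn lie in the imprinted region that is lost in Prader-Willi syndrome. Ndn, encoding the growth suppressor necdin, ranged from 171 to 186 RPKM in sham and from 201 to 231 in SNI (0.26 ± 0.04, limma adjusted p = 0.000257), and 0.35 ± 0.04 with the trend removed. Snrpn, whose locus carries overlapping transcripts that unstranded reads cannot separate, went from a median of 221 to 252 RPKM (0.19 ± 0.04, adjusted p = 0.00146). Neither overlapped between groups. Cox7c, a subunit of cytochrome oxidase with 38.4% GC, rose by 0.34 ± 0.06. With the library-axis correction these 3 values were 0.14, 0.14 and 0.11, none past the threshold. In the other direction, 14 genes of at least 55% GC fell, all of them under 60% GC.

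Lists of cell type and pathway genes are described by their counts, beside 21.5% higher and 13.7% lower among all genes. In bulk tissue, fewer cells of a type and less RNA per cell cannot be told apart. Of 17 PAG and midbrain neuron genes tested, of 18 listed, 5 rose and 0 fell (median log2 fold change 0.09). Gata3 ranged from 3.85 to 4.29 RPKM in sham (median 4.07) and from 4.56 to 6.61 in SNI (median 5.12), and every SNI library was the higher. Its change was 0.35 ± 0.07 as deposited (limma adjusted p = 0.00136), 0.36 ± 0.07 with the trend removed (adjusted p = 0.00326) and 0.36 ± 0.07 with the library-axis correction (adjusted p = 0.0557). Gata3 is near 0 RPKM in NAc and PFC, so the last correction could change it little. Barhl1 and Sox14, homeobox and SRY-box factors, rose by 0.51 and 0.38 from means under 1 RPKM, and Gata2 rose by 0.37. Pax7, a factor of the dorsal midbrain, was the last of the 5. Slc17a6 did not pass (-0.07 ± 0.05, adjusted p = 0.287), and its libraries overlapped. Once the trend was removed 1 of the 17 rose, Gata3, and 1 fell, Tal1. Under the library-axis correction 1 rose, Barhl1 (adjusted p = 0.0314), from a mean under 1 RPKM. Its SNI effect in PAG exceeded the mean of the NAc and PFC effects by 0.50, nearly all of its PAG change. The correction may thus have changed Barhl1 little and is a weak check on it.

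Serotonin neuron genes were uneven between SNI libraries. Among 10 genes, 1 rose, Gata3 again, and 0 fell, and the median was -0.33. Tph2 ranged from 122 to 186 RPKM in sham (median 148) and from 52.7 to 153 in SNI (median 130), with SNI 31 and SNI 34 at 52.7 and 62.2 and SNI 33, 35 and 36 inside the sham range. The fold change was -0.54 ± 0.25 (limma adjusted p = 0.112). Slc6a4, the serotonin transporter, stood at -0.51 ± 0.26 (adjusted p = 0.134). Fev, the GC-rich factor that specifies serotonin neurons, had -0.33 (adjusted p = 0.213) and fell by 0.78 once the trend was removed (adjusted p = 0.0169). The summed level of the list ran from 312 to 454 RPKM in sham and from 162 to 404 in SNI, which places the same pair of libraries lowest, and the part of dissected raphe tissue in other results was not tested.

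Cholinergic genes of the nearby cranial motor nuclei were lower in several SNI libraries. Of 13 listed, 7 were tested, 2 of which fell and 1 rose (median -0.60), and without sham 28 and SNI 36 4 fell and 1 rose. Sham 28 was the lowest sham library for the summed level of the list (38.8 RPKM) and SNI 36 the highest SNI library (63.4). Leaving both out therefore widens the difference for this list. With the GC and length trend removed 0 of the 7 passed, and 0 passed with the library-axis correction. Slc5a7, the choline transporter of cholinergic terminals, ranged from 6.63 to 20 RPKM in sham (median 11) and from 0.874 to 10.8 in SNI (median 4.11), with the groups overlapping. It fell by 1.36 ± 0.43 on the log2 scale (limma adjusted p = 0.0245), by 1.77 without sham 28 and SNI 36 (adjusted p = 0.00708), and missed the threshold without sham 29 (adjusted p = 0.0553) and without SNI 31. Chodl, a marker of fast motor neurons, fell by 0.60 ± 0.20 (adjusted p = 0.035), a call lost on leaving out any of 7 single libraries. Chat, the enzyme of acetylcholine synthesis, had -0.93 ± 0.35 (adjusted p = 0.054) and fell by 1.31 without sham 28 and SNI 36 (adjusted p = 0.00809). The riser was Ache, the GC-rich acetylcholinesterase gene (0.29 ± 0.06), whose value with the trend removed was -0.06. The values of Slc5a7 were -1.25 with the trend removed and -1.35 with the library-axis correction, neither past the threshold. The summed level of the list was 38.8 to 66.1 RPKM in sham and 36.5 to 63.4 in SNI, and how much motor nucleus each sample held was not tested.

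Pnoc encodes prepronociceptin, precursor of the opioid-related peptide that acts on the nociceptin receptor. Pnoc ranged from 3.40 to 5.99 RPKM in sham (median 4.57) and from 6.73 to 8.89 in SNI (median 7.39), with no overlap. The rise was 0.67 ± 0.10 as deposited (limma adjusted p = 0.000221), 0.63 ± 0.10 with the trend removed (adjusted p = 0.00102), 0.55 without sham 28 and SNI 36, and 0.35 ± 0.07 with the library-axis correction (adjusted p = 0.0733). It was the only riser among 8 opioid genes, none of which fell. Oprm1, the mu opioid receptor, had -0.16 ± 0.10 (adjusted p = 0.215), and Oprd1, Oprk1, Oprl1, Penk, Pdyn and Pomc did not pass either.

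Of 21 peptide genes, 4 rose and 1 fell (median 0.01). Besides Pnoc these were Sst, somatostatin (0.43 ± 0.09), Vgf, a secreted peptide precursor induced by neurotrophins (0.70 ± 0.13), and Tac2, neurokinin B (0.35 ± 0.12), whereas Scg2, secretogranin II, fell by 0.30 ± 0.08. Sst, Vgf and Tac2 were no longer past the threshold with the trend removed (0.25, 0.18 and 0.25), where Pnoc alone of the list rose and Scg2 alone fell. With the library-axis correction Sst and Vgf had values of -0.14 and -0.20. Cartpt, the CART peptide of the Edinger-Westphal nucleus, spread from 60.2 to 359 RPKM in sham and from 58.1 to 122 in SNI (-0.83 ± 0.41, limma adjusted p = 0.133). Sham 25 and 29, the libraries highest for Cartpt, were also the highest for Slc5a7 and Chat.

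Endocannabinoid enzymes rose in 4 of 9 genes tested, and 0 fell (median 0.00). Dagla, which makes 2-arachidonoylglycerol, ranged from 3.97 to 5.78 RPKM in sham (median 5.10) and from 6.29 to 9.85 in SNI (median 8.04), without overlap (0.63 ± 0.09, limma adjusted p = 0.000232). With the trend removed it rose by 0.28 ± 0.05 (adjusted p = 0.00372), and with the library-axis correction it had 0.11 ± 0.04 (adjusted p = 0.339). Mgll and Faah, which break endocannabinoids down, rose by 0.26 ± 0.04 and 0.17 ± 0.04, and Daglb by 0.12 ± 0.04. In the fit with the trend removed 2 of the 9 rose, Dagla and Daglb, and 1 fell, Abhd12. Cnr1, the CB1 receptor, stood at 24.9 and 23.7 RPKM (limma adjusted p = 0.237).

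Of 17 genes of GABA receptors and chloride transport tested, 9 fell and 1 rose (median -0.15), and the median GC content of the list was 43.1%. Gabrq, the theta subunit, ranged from 13.1 to 14.8 RPKM in sham and from 9.26 to 12.7 in SNI without overlap (-0.29 ± 0.06, limma adjusted p = 0.00336), and fell by 0.21 ± 0.06 with the trend removed. Gabrb1 and Gabrb2, beta subunits, fell by 0.28 and 0.21, and neither passed with the trend removed. Slc12a5, the KCC2 chloride exporter that keeps GABA inhibitory, went from a median of 88.6 to 112 RPKM (0.32 ± 0.05, adjusted p = 0.000451), against 0.01 ± 0.02 with the trend removed. In that fit 4 of the list fell and 0 rose, and with sham 28 and SNI 36 left out of the deposited values 4 fell and 1 rose. With the library-axis correction the median of the list was 0.02, beside 0.01 for all genes tested, and 0 genes passed. With the slope as covariate the median of the list was 0.01, beside 0.04 for all genes tested.

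Ionotropic glutamate receptors moved in both directions, and the risers were GC-rich. Of 15 genes, 4 rose and 5 fell (median -0.11). The risers were Grik5, Grin1, Grin2c and Grin2d, with GC contents of 61.7%, 59.4%, 62.1% and 65.0% and rises of 0.49, 0.39, 0.34 and 0.33. Grin1, the obligatory NMDA receptor subunit, ranged from 13.1 to 14.7 RPKM in sham and from 15.2 to 22 in SNI (limma adjusted p = 0.000797). With the trend removed Grin1 had 0.02 ± 0.03 and Grin2d fell by 0.27 ± 0.03 (adjusted p = 0.000389). In that fit 0 of the 15 rose and 2 fell.

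Microglial genes rose in 8 of 19 tested, and 0 fell (median 0.11). C1qa, a chain of the complement component C1q, ranged from 7.06 to 9.60 RPKM in sham (median 9.09) and from 13.4 to 23.7 in SNI (median 14.7), without overlap (0.79 ± 0.12, limma adjusted p = 0.000249). C1qc and C1qb rose by 0.60 ± 0.10 and 0.31 ± 0.08, and Tmem119 by 0.59 ± 0.08. The C1q genes were highest in SNI 36 and lowest in sham 28, and without both C1qa rose by 0.61 (adjusted p = 1.44e-05). The receptors P2ry12 and Cx3cr1 did not pass: P2ry12 had -0.12 ± 0.10 (adjusted p = 0.399) and Cx3cr1 -0.02. After removal of the trend 4 of the 19 rose, C1qa (0.48 ± 0.09) among them, and with the library-axis correction 0 did, C1qa having 0.13 ± 0.07. The summed level of the list was 176 to 192 RPKM in sham and 185 to 221 in SNI.

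Astrocyte genes rose in 10 of 20 and fell in 3 (median 0.17), and without sham 28 and SNI 36 9 rose and 1 fell. Apoe, the lipid carrier of brain, ranged from 191 to 291 RPKM in sham (median 231) and from 362 to 395 in SNI (median 372), and no sham library reached the lowest SNI library (0.65 ± 0.08, limma adjusted p = 0.000101). It rose by 0.31 ± 0.06 with the trend removed and had 0.04 ± 0.06 with the library-axis correction. Agt, described above, rose by a like amount as deposited and was the 1 gene of the list to rise with that correction. Fgfr3 and Slc7a10 rose by 0.39 and 0.34. Slc1a2, the main glutamate transporter, with 45.3% GC, ranged from 181 to 205 RPKM in sham and from 148 to 180 in SNI (-0.17 ± 0.05, adjusted p = 0.0243), against -0.08 ± 0.05 with the trend removed. In that fit 6 of the 20 rose and 0 fell.

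Of 20 myelin and oligodendrocyte genes, 7 rose and 0 fell (median 0.08), 3 rose with the trend removed, and 0 passed with the library-axis correction (median -0.04). The summed level of the list was 1772 to 1903 RPKM in sham, 2143 in SNI 31 and 2352 in SNI 34, the libraries lowest for serotonin genes, and 1714 to 1968 in the other 4 SNI libraries. The part of these libraries in the result was not tested. Mbp, myelin basic protein, ranged from 204 to 260 RPKM in sham (median 225) and from 300 to 408 in SNI (median 342), without overlap (0.60 ± 0.08, limma adjusted p = 9.69e-05). Cldn11, a tight junction protein of the sheath, rose by 0.45 ± 0.07. Both lie near 51% GC and kept values of 0.57 and 0.43 with the trend removed, against 0.05 and -0.07 with the library-axis correction. Sox10, the transcription factor of the oligodendrocyte lineage, with 61.8% GC, rose by 0.63 ± 0.06 as deposited and by 0.19 ± 0.04 with the trend removed (adjusted p = 0.0103).

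**Figure D4:**
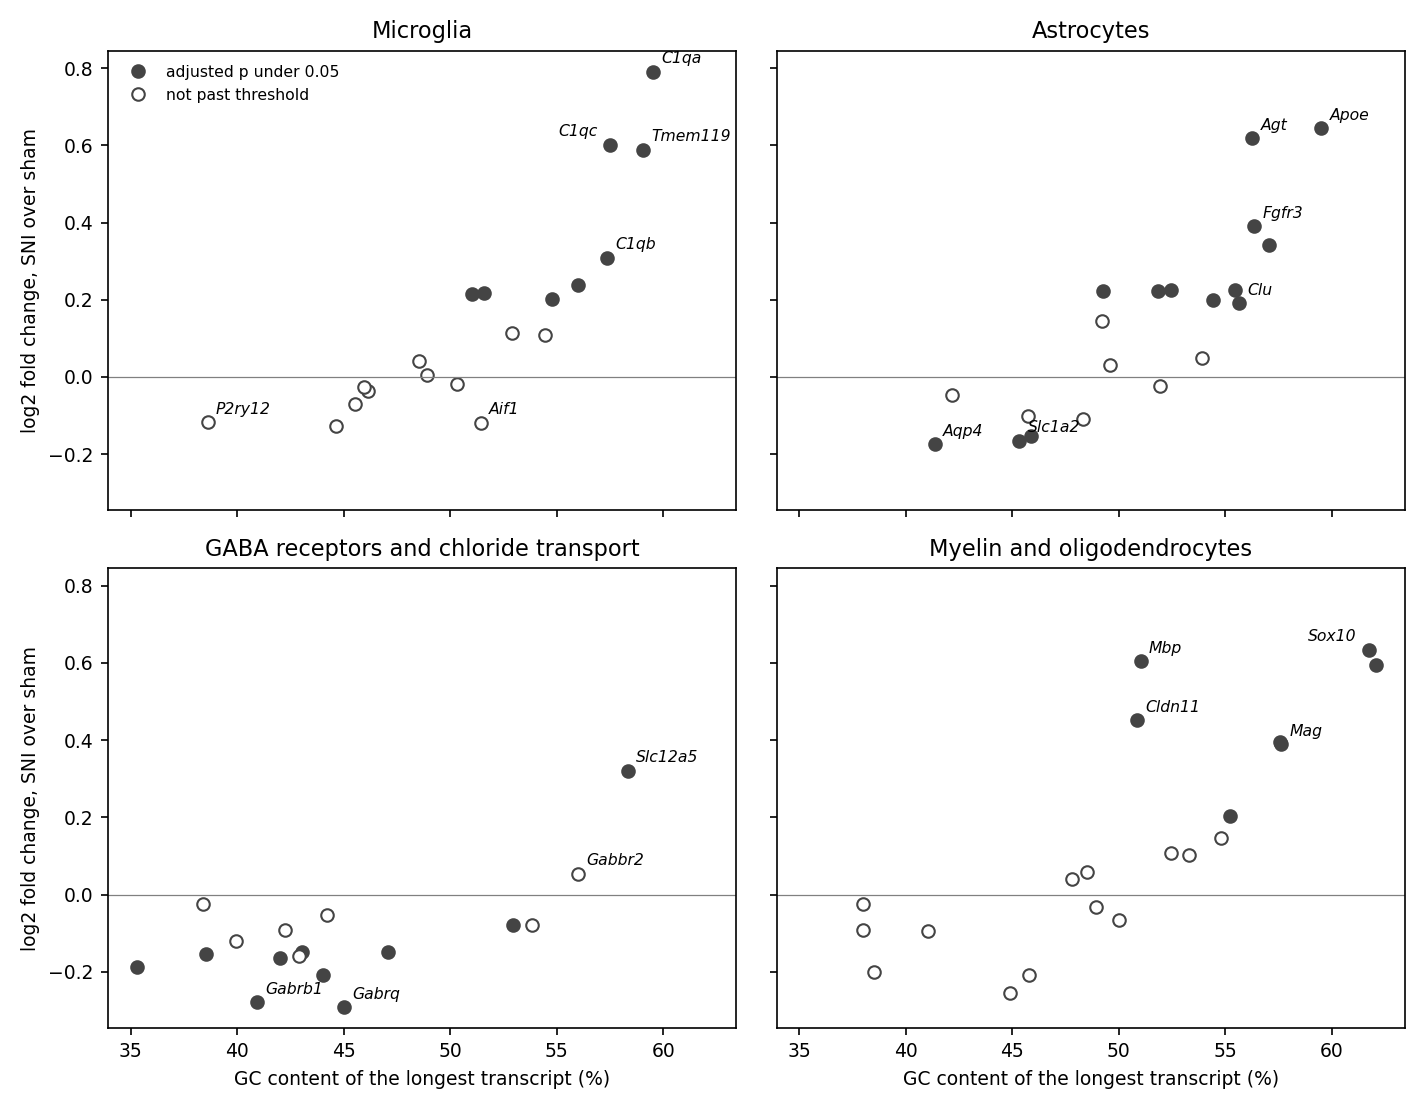
Each point is 1 gene of 4 lists in PAG, with its GC content (horizontal axis, percent) and its log2 fold change of SNI over sham (vertical axis); filled points have an adjusted p under 0.05. GC-rich members such as C1qa (0.79) lie above GC-poor ones such as P2ry12 (-0.12), and Mbp (0.60) and Cldn11 (0.45) lie near 51% GC.

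Of 13 ependymal genes, 3 rose and 0 fell (median 0.02). Beside Foxj1 these were Tekt4, a ciliary microtubule protein (0.54 ± 0.11, limma adjusted p = 0.0014), and Rarres2, chemerin (0.31 ± 0.06, adjusted p = 0.00171), and all 3 also rose with the trend removed. Structural ciliary genes such as Dnah5, Dnah9 and Hydin had values of 0.02, 0.00 and -0.10, none past the threshold. The summed level of the list was 100 to 121 RPKM in sham and 112 to 128 in SNI.

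Genes of the glucocorticoid response rose in 8 of 22 and fell in 2 (median 0.23), and without sham 28 and SNI 36 5 rose and 1 fell. The summed level of the list was 183 to 225 RPKM in sham, 575 in SNI 36 and 294 to 360 in the other SNI libraries. Mt1 and Mt2 alone held 226 and 143 RPKM of the sum in SNI 36, so the sum does not stand for the whole list. Klf15, a metabolic transcription factor induced by glucocorticoids, ranged from 3.86 to 4.67 RPKM in sham and from 5.67 to 10.7 in SNI (0.67 ± 0.12, limma adjusted p = 0.000744). Per1, a clock gene that glucocorticoids induce, rose by 0.61 ± 0.11, and Mt1 and Mt2 belong to the same list. Crhbp, the binding protein of corticotropin-releasing hormone, fell by 0.29 ± 0.07 (adjusted p = 0.00766) and by 0.27 ± 0.08 with the trend removed. Fkbp5, the receptor co-chaperone, had 0.18 (adjusted p = 0.101). Sgk1, a kinase that glucocorticoids induce, reached 24 and 23.5 RPKM in SNI 34 and SNI 36 and 7.01 to 13.6 in the other SNI libraries (0.61, adjusted p = 0.0727). Without the trend 5 rose and 1 fell, and with the library-axis correction 0 of the 22 passed.

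Of 25 immediate-early genes, 8 rose and 0 fell (median 0.17), and without sham 28 and SNI 36 4 rose and 0 fell. Arc, which acts at active synapses, went from a median of 3.43 to 5.02 RPKM without overlap (0.44 ± 0.08, limma adjusted p = 0.00123). Junb, Ier3 and Ier2 rose by 0.55, 0.38 and 0.36, all GC-rich. Fos overlapped widely between the groups (0.15 ± 0.28, adjusted p = 0.691). Without the trend 1 of the list rose, Dusp6, 1 fell, Jund, and Arc had 0.10 ± 0.08 (adjusted p = 0.423). Under the library-axis correction Junb fell by 1.04 (adjusted p = 0.0383), the opposite of its deposited direction. Heat shock and unfolded protein response genes were nearly level, with 1 riser, Ddit3 (0.15 ± 0.05), and 1 that fell, Canx (-0.17 ± 0.04), of 25, and without sham 28 and SNI 36 0 rose and 1 fell.

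Cytosolic ribosomal protein genes rose in 22 of 46 and fell in 5 (median 0.11), and 21 rose and 5 fell with the trend removed. Without sham 28 and SNI 36, 22 rose and 1 fell. Rps29 ranged from 16.9 to 28.7 RPKM in sham and from 47.1 to 70.8 in SNI (1.27 ± 0.12, limma adjusted p = 4.87e-05), and Rplp1 and Rps15 rose by 1.07 and 0.78. Nuclear genes of oxidative phosphorylation rose in 16 of 35 and fell in 4 (median 0.14), and without that pair of libraries 16 rose and 2 fell. Ndufs7, a complex I subunit, ranged from 5.61 to 12 RPKM in sham and from 17.8 to 28.9 in SNI (1.25 ± 0.14, adjusted p = 7.32e-05), and Uqcr10, Ndufb7 and Uqcr11 rose by 0.75, 0.72 and 0.69. With the library-axis correction 0 genes of either list passed in any direction, and Rps29 and Ndufs7 had 0.15 and 0.09. Ribosomal protein genes have near-identical processed copies, so how their reads were shared is uncertain.

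**Figure D5:**
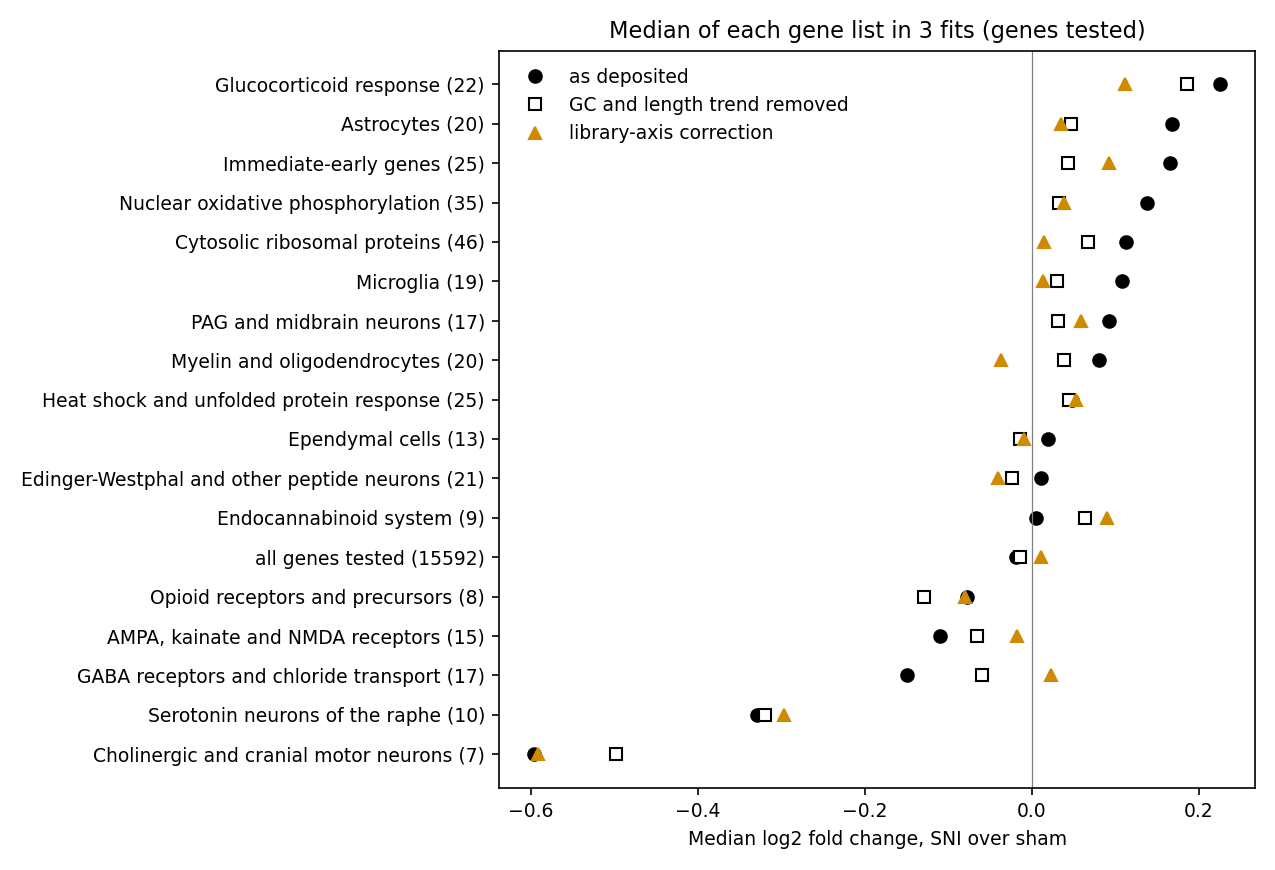
Median log2 fold change of SNI over sham (horizontal axis) of 17 gene lists and of all genes tested in PAG, as deposited (filled circles), with the GC and length trend removed (open squares) and with the library-axis correction (triangles); the number of genes tested is in brackets. The median of the microglial list goes from 0.11 to 0.03 and 0.01, whereas those of the cholinergic (-0.60) and serotonin (-0.33) lists are low in all 3 (-0.50 and -0.30 at their closest to 0).

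Whether an effect of SNI differed in PAG was tested as the PAG effect minus the mean of the NAc and PFC effects in a model of all 36 libraries. Of 15592 genes, 10 (0.0641%) passed, all with a more positive effect in PAG: Gata3, Sfrp5, Exoc3l4, Barhl1, Barhl2, Sox14, Mab21l2, Irx1, Tcp11 and Ldlrad2. Gata3 differed by 0.35 ± 0.06 (limma adjusted p = 0.00318) and Mab21l2 by 0.50 ± 0.08 (adjusted p = 0.00162). Gata3 did not exceed 0.0126 RPKM in any NAc library or 0.02 in any PFC library, and Mab21l2 reached at most 0.156 and 0.0673, whereas Sfrp5 reached 0.736 in NAc. In regions where a gene is near 0, the pseudocount holds its fold change near 0, and the difference is then close to the PAG effect alone. With a pseudocount of 0.1 limma called 0 genes (lowest adjusted p = 0.06, 2755 at an unadjusted p under 0.05). With the GC and length trend removed 3 genes passed (0.0194%), Gata3, Mab21l2 and Scrn2. Leaving out single PAG libraries gave 8 to 60 genes, with 60 without sham 25 and 16 without SNI 33.

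Changes as large as those of Agt (PAG 0.62, NAc -0.09, PFC -0.14), Npas1 (0.89, 0.02, -0.02) and Pnoc (0.67, 0.04, -0.04) were not shown to differ between regions (limma adjusted p = 0.137, 0.113 and 0.137). For Mt2 the effects were 1.63 in PAG, 0.53 in NAc and 0.08 in PFC (adjusted p = 0.181), and the differences in GC slope were 0.23, 0.09 and 0.01 in the same order. The part of the slope in this order was not tested.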

How the data were processed

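The authors deposited 1 table of RPKM values per gene for 36 libraries. Poly(A) libraries were made with the TruSeq v2 kit, per the labels' protocols, and TopHat2, HTSeq and mm10 are named in the submitters' processing notes. The values held whole reads (100% within a tolerance of 0.001 reads), which gave each library's assigned reads. Genes averaging 0.5 RPKM or more across PAG were tested with limma 3.58.1 (mean-variance trend, R 4.3.3) on log2(RPKM + 0.5), with Benjamini-Hochberg adjustment over all genes, so fold changes of low genes are understated. GC content came from the longest GENCODE M21 transcript (97.9% of IDs matched). Trends were removed by loess (span 0.3). The fit as deposited, the fit with the GC and length trend removed and the slope estimate were run on simulated counts with linear GC slopes. The library-axis correction, the covariate fit and the interaction were not simulated. Within-group pairs of PAG libraries differed by more than sampling noise (lowest chi-square per degree of freedom 3.89 over 30 pairs).

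The members and lists were chosen with earlier results of these data known. Named genes are those ranked by the smallest change over the fits (up to 12 a direction, at least 2 RPKM), the 6 largest a direction, up to 4 of each list, the markers, and genes named after their values were seen (Slc1a2, P2ry12, Chat, Cartpt, Snrpn, Ndn, Cox7c, and further list members such as Fev, Fkbp5, Sgk1 and Cx3cr1). Mitochondrially encoded genes were not analysed here, and some members that the rule names are not reported here.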

Additional observations from a re-analysis of the deposited data

Results flagged for a closer look

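Within groups of 6, a single library stood far from the other 5 in 27 of 196 groups tested. About 1 in 20 would do so by chance if the groups were independent. They share the same libraries, so the count is a description and not a test. In 19 of the 27 flagged groups the library was SNI 36, whose GC slope was the steepest. It was the highest SNI library for Foxj1 (15.1 RPKM), Rpl36 (66.2), Ccdc85b (8.23), Mt2 (143), Mt1 (226), Pcsk1n (16.8) and Vgf (44.0). The same held for C1qa (23.7), C1qc (11.7), C1qb (29.9), Ier3 (7.22), Ier2 (1.04), Rps29 (70.8), Rplp1 (244), Ndufs7 (28.9) and Uqcr11 (39.3). It was the lowest for Slc40a1 (1.88), Tipin (6.89) and P2ry12 (6.46). Sham 28, with the steepest slope the other way, was the lowest sham library for C1qa (7.06), C1qc (4.29), C1qb (15.9) and Irx1 (0.700). The remaining flags were Tmem25 in sham 25 (22.2), Slc9a7 in sham 29 (20.3), Ier3 in sham 27 (5.74) and Gabrb2 in SNI 33 (28.4).

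The interaction test of the effect of SNI in PAG against the mean of the other regions called 10 genes. Genes entered it by their level in PAG alone, and Gata3 and Mab21l2 are near 0 in NAc and PFC. With a pseudocount of 0.1 the test called 0 genes. The differences in log2 fold change were 0.35 for Gata3, 0.54 for Sfrp5, 0.61 for Exoc3l4, 0.50 for Barhl1, 0.39 for Barhl2, 0.37 for Sox14, 0.50 for Mab21l2, 0.55 for Irx1, 0.57 for Tcp11 and 0.66 for Ldlrad2. Without SNI 36 the test called 9 genes with a more positive and 1 with a more negative effect in PAG.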

How the results depend on the processing

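Against 5495 genes changed as deposited, limma called 3423 with all 36 libraries in 1 model, 2019 with the GC trend removed, 2412 with the GC and length trend removed (1544 shared with the deposited values, same sign), 22 with the library-axis correction and 0 with the slope as covariate. Quantile scaling gave 2924 higher and 4019 lower, leaving out 1 library 4231 to 6530, and the other scalings, filters and pseudocounts counts within 1.5 times. The interaction gave 10 genes, 0 with a pseudocount of 0.1, 17 with 1, 2 above 2 RPKM, 3 with the GC trend removed, 3 with the GC and length trend removed, and 8 to 60 without 1 library. The GC slope difference was 0.209 to 0.247 without 1 library. The length slope difference was -0.015 above 2 RPKM and -0.0048 to -0.00043 without 1 library. Signs of log2 fold changes turned as follows, and the cause was not tested. With the library-axis correction these were Ccdc85b (-0.23), Pcsk1n (-0.62), Ache (-0.14), Vgf (-0.20), Sst (-0.14), Gabrb2 (0.041), Grik5 (-0.086), Grin1 (-0.10), Grin2d (-0.037), Cldn11 (-0.073), Rarres2 (-0.0096), Junb (-1.04), Ier2 (-0.21), Ddit3 (-0.043), Rplp1 (-0.086), Uqcr11 (-0.11), Slc17a6 (0.15) and P2ry12 (0.023). With the slope as covariate they were Pcsk1n (-0.049), Pet100 (0.073), Pcbd1 (0.023), Slc40a1 (0.44), Tipin (0.11), Ache (-0.044), Vgf (-0.093), Dagla (-0.017), Daglb (-0.042), Slc12a5 (-0.032), Grik5 (-0.050), Grin1 (-0.010), Grin2c (-0.072), Grin2d (-0.13), C1qc (-0.0037), C1qb (-0.17), Tekt4 (-0.052), Klf15 (-0.0086), Junb (-0.088), Ier3 (-0.026), Ier2 (-0.21), Uqcr11 (-0.0035), Slc17a6 (0.22), P2ry12 (0.53) and Irx1 (-0.050). With the GC trend removed they were Ache (-0.039), Grin2c (-0.13), Grin2d (-0.22), Ier2 (-0.062) and Slc17a6 (0.030), and with the GC and length trend removed Ache (-0.058), Grin2c (-0.16), Grin2d (-0.27), Ier2 (-0.015), Slc17a6 (0.028) and P2ry12 (0.00021). Without sham 28 and SNI 36, a setting chosen after the slopes were seen, P2ry12 had 0.021. No paired analysis was possible because the groups share no replicate numbers. A quasi-likelihood count test was not run, and voom on recovered reads called 5659 genes. Pools of unknown make-up and the slope shared with surgery limit what these libraries can separate.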
